A study of Homo sapiens with 4 samples.

Results

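N6-methyladenosine (m6A) is a methyl mark placed on messenger RNA inside the nucleus, and 10 genes that write, erase or read it were followed through an RNA pull-down with the autophagy protein LC3B. They were taken by their symbols from the 60676 genes of the deposited tables, by role and not by any measured value. Earlier results of these data were known when they were chosen. The 3 writers were METTL3, METTL14 and WTAP, the 2 erasers were ALKBH5 and FTO, and the 5 readers were YTHDF1, YTHDF2, YTHDF3, YTHDC1 and YTHDC2. RNA came from U2OS, an established human osteosarcoma cell line, grown without a stated treatment, and was recovered by native nuclear RNA immunoprecipitation, in which a nuclear lysate is incubated with an antibody without crosslinking. The 4 libraries were a pull-down with an LC3B antibody, a pull-down with non-specific IgG as the negative control, and an input without antibody for each, named here LC3B input and IgG input. Each group held 1 library of 1 cell line, so nothing below could be checked against replicates and p-values are not given. The study set out to find mRNAs bound by LC3B, and the values below concern the mRNAs of the m6A genes, not their proteins.

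METTL3 is the catalytic subunit of the m6A methyltransferase, METTL14 is its partner and holds the RNA substrate, and WTAP is an adaptor that keeps the pair in nuclear speckles. ALKBH5 and FTO are iron- and 2-oxoglutarate-dependent dioxygenases that take the methyl group off again. The YTH domain is a pocket that binds the methylated base. YTHDF1, YTHDF2 and YTHDF3 are mainly cytoplasmic proteins linked to the translation and decay of methylated mRNA, YTHDC1 is nuclear and linked to splicing and export, and YTHDC2 is an RNA helicase best known from meiosis. LC3B resembles ubiquitin, is joined to lipid on the membranes of autophagosomes, and is also found in the nucleus.

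Depth was similar in the 4 libraries, with 10000914 to 10886762 reads assigned to genes. Mitochondrial genes took 22.8% of the reads of the IgG input and 20.8% of its LC3B counterpart, but 1.77% after the pull-down with IgG and 0.775% after that with LC3B, so each library was scaled to its total without them (8404123 to 10375786 reads) and levels are given in CPM, the count scaled to that total. The IgG pull-down stood apart in the number of genes with any read, 14440 against 22947 to 23915 in the other 3 libraries. Of 9 mesenchymal and osteoblast-lineage markers 7 had reads in any 1 library, not the same 7 throughout. VIM, COL1A1, SPARC, RUNX2, CD44 and ALPL had reads in all 4 libraries. COL1A2 held at most 3 reads in a library, BGLAP at most 2, and SP7 had 0 reads in all. The summed level of the 9 was 2923 and 3332 CPM in the inputs, 2102 with IgG and 4006 with LC3B. Of 11 markers of other cell types 5 to 8 had reads; their summed level, 1512 and 1425 CPM in the IgG and LC3B inputs, 1114 with IgG and 2591 with LC3B, came almost wholly from the keratin gene KRT8, and its part in the results was not tested.

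Transcripts of all 10 m6A genes were detected in both inputs. Levels of different members are ranked only in TPM, the authors' values per transcript length, rescaled here without mitochondrial genes. Sums over several genes are given in CPM, so the part of a gene in a sum is a share of reads. The mean of the inputs was highest for WTAP, at 88.6 TPM, and for YTHDF2, at 84.1 TPM, followed by YTHDF1 at 48.7 TPM. METTL3 at 27.7 TPM, FTO at 27.2 TPM, METTL14 at 26.5 TPM, ALKBH5 at 22.5 TPM and YTHDF3 at 22.1 TPM lay close together. YTHDC1, at 13.0 TPM, and YTHDC2, at 3.72 TPM, were the lowest of the set. Ranges of the inputs overlapped for the neighbours WTAP and YTHDF2, METTL3 and FTO, FTO and METTL14, and ALKBH5 and YTHDF3, so these pairs have no order beyond the spread between 2 libraries.

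**Figure D1:**
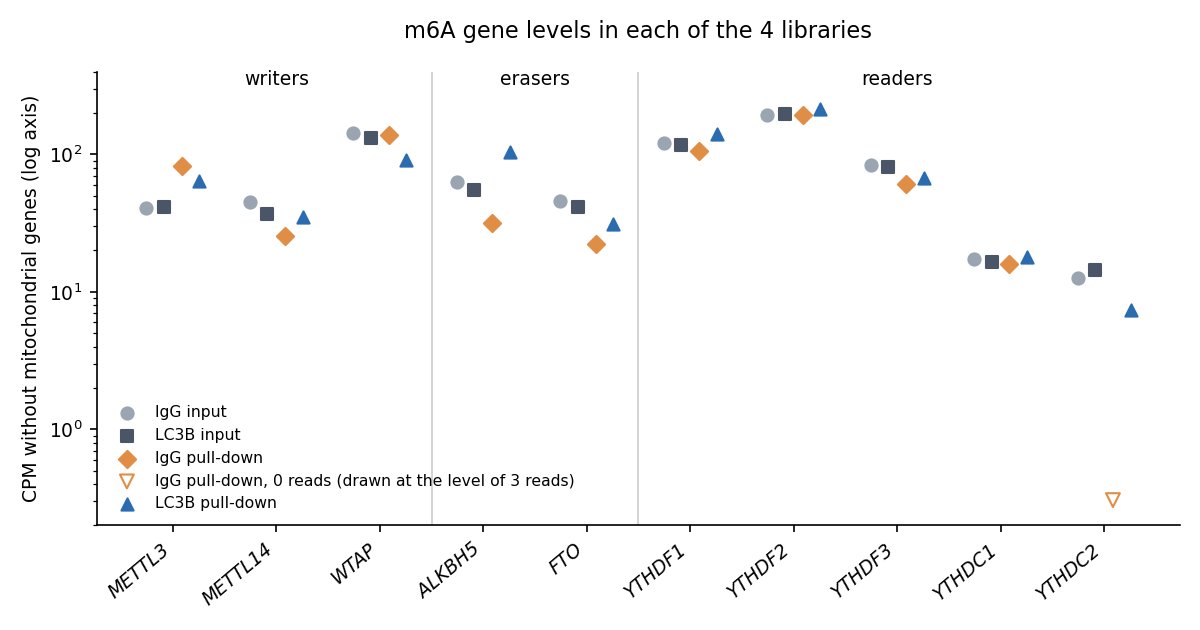
Level of each m6A gene in CPM, without mitochondrial reads, in the 4 libraries on a log axis, 1 point per library. ALKBH5 is highest in the LC3B pull-down, METTL3 is higher in both pull-downs than in the inputs, and YTHDC2 has 0 reads in the IgG pull-down, drawn at the level of 3 reads.

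Between the inputs, the members differed little. The fold of LC3B input over IgG input ran from 0.819 for METTL14 to 1.15 for YTHDC2, and no member was called. A gene was called higher where the lower bound of the exact 95% counting interval of its fold reached at least 2, and lower where the upper bound reached at most 0.5; by this rule 0.136% of the 15431 genes that averaged at least 1 CPM were higher and 0.156% lower between the inputs. All 10 members passed that level filter. With 1 library per group, the intervals cover counting error only. Reads amplified without molecular identifiers are not independent molecules, so even the counting error may be wider than the intervals. The METTL14 interval was 0.703 to 0.954, and in TPM without mitochondrial genes its fold between the inputs was 0.991. Among the 7458 genes within the members' range of input levels, the central 95% of folds between the inputs ran from 0.793 to 1.36, and this is the only spread between like libraries that the data give.

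Of the 10 members, 2 were called higher in the LC3B pull-down than in the IgG pull-down, ALKBH5 and YTHDC2, and 0 were called lower. Over all tested genes 33.8% were called higher and 9.45% lower, and among the genes within the members' range of input levels 23.9% were higher and 7.24% lower, so 2 of 10 is no more than the share in the library as a whole. The median log2 ratio of the members was 0.28 against 0.41 for all tested genes. Against the LC3B input, 0 of the 10 members were called in either direction, where 1.4% of all genes were called higher and 4.48% lower; the members' median log2 ratio was 0.02 and that of all genes 0.01. Against its own input the IgG pull-down had 0 members called higher and 1 called lower, YTHDC2, where 9.69% of all genes were higher and 33.6% lower, with median log2 ratios of -0.32 for the members and -0.43 for all genes. YTHDF1, YTHDF2 and YTHDC1 stayed within 0.793 to 1.36, the central range of folds between the inputs, in each of these 3 comparisons.

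**Figure D2:**
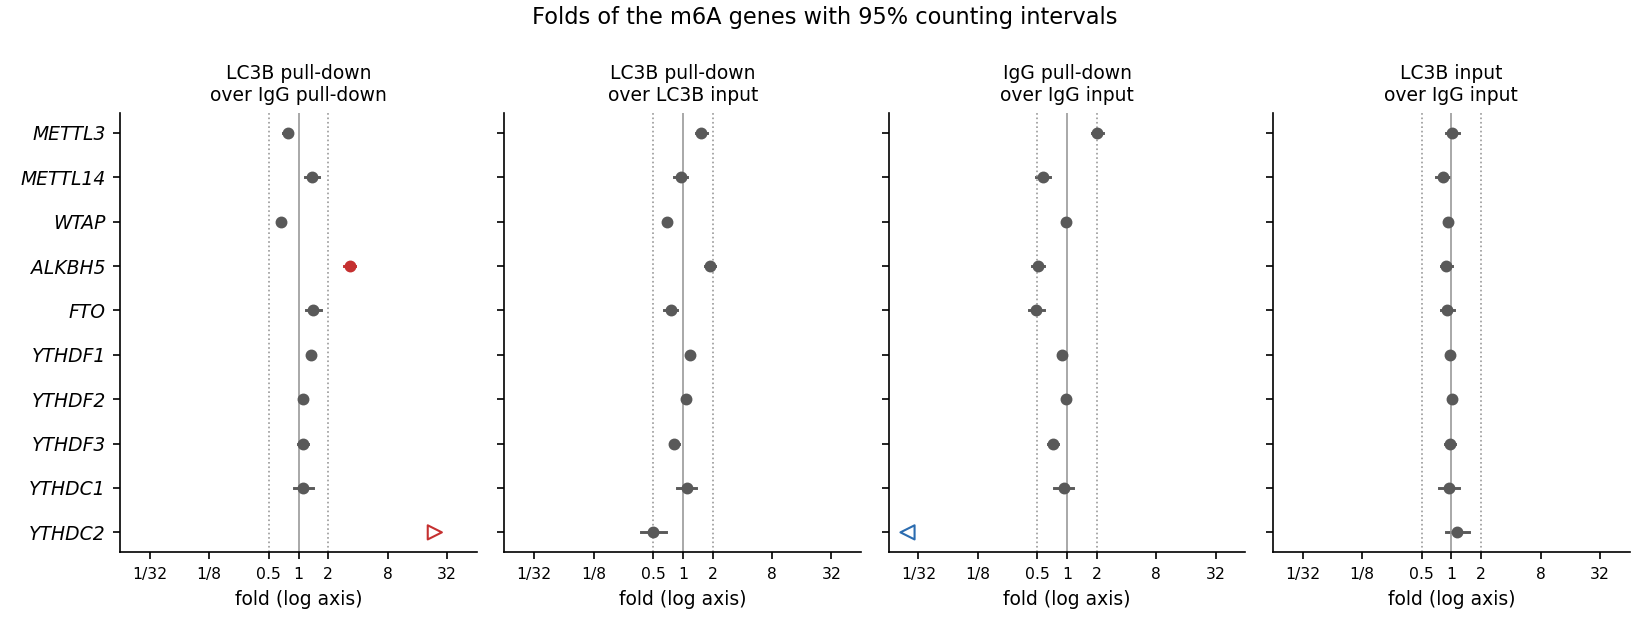
Fold of each m6A gene in the 4 comparisons on a log axis, with its 95% counting interval. Lines mark 0.5 and 2, the bounds a whole interval had to pass for a call. Red is called higher, blue called lower, and open triangles are folds with a count of 0 set to 3 reads. ALKBH5 and YTHDC2 lie beyond 2 in the LC3B pull-down over the IgG pull-down, and the members lie between 0.819 and 1.15 in LC3B input over IgG input.

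The METTL3 transcript was more abundant in both pull-downs than in the inputs. METTL3 (ENSG00000165819, minus strand, hg38 chr14:21498133-21511342) had 40.6 CPM in the IgG input, 41.4 in that of LC3B, 82.1 after the pull-down with IgG and 64 after that with LC3B. The pull-down values lay above both inputs, and that of IgG was the highest. Its fold over input was 2.02 with IgG (interval 1.78 to 2.30) and 1.54 with LC3B (1.36 to 1.76), neither of which was called, and LC3B over IgG was 0.779 (0.702 to 0.864). With mitochondrial reads kept in the totals, IgG over input became 2.58 and was called higher, as were 15.6% of all genes in that setting. TOX4, a DNA-binding chromatin protein gene on the opposite strand, shares 1043 bases with METTL3 and had 680 reads in the IgG input, 615 in that of LC3B, 1209 after the pull-down with IgG and 666 after that with LC3B. The fold of TOX4 over input was 1.52 with IgG and 0.892 with LC3B. The strand setting behind the counts is not given in the sources used here, so reads of METTL3 and TOX4 in the shared bases cannot be told apart.

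Its partner METTL14 took another course. METTL14 (ENSG00000145388, plus strand, chr4:118685392-118715433) had 44.9 CPM in the IgG input, 36.8 in that of LC3B, 25.6 after the pull-down with IgG and 35.1 after that with LC3B. The IgG pull-down was the low library, and the LC3B pull-down was near its own input. Its fold over input was 0.570 with IgG (0.484 to 0.670) and 0.954 with LC3B (0.818 to 1.11), and LC3B over IgG was 1.37 (1.17 to 1.62); none was called. With mitochondrial reads in the totals, LC3B over input turned to 1.20. METTL14-DT, a divergent non-coding transcript, held at most 10 reads in a library.

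WTAP was the 1 writer whose low library was the LC3B pull-down. WTAP (ENSG00000146457, plus strand, chr6:159725585-159756319) had 142.0 CPM in the IgG input, 132.6 in that of LC3B, 137.8 after the pull-down with IgG and 91.2 after that with LC3B. The LC3B pull-down lay below the other 3 libraries, which were close to each other. The fold of LC3B over its input was 0.687 (0.630 to 0.750) and over IgG 0.662 (0.608 to 0.719), and IgG over input was 0.971 (0.898 to 1.05), or 1.24 with mitochondrial reads in the totals; none was called. SOD2, the mitochondrial superoxide dismutase gene, shares 19602 bases with WTAP on the opposite strand, and its annotated gene ENSG00000112096 had 350 reads in the IgG input, 439 in that of LC3B, 723 after the pull-down with IgG and 460 after that with LC3B. The fold of that SOD2 gene was 0.602 for LC3B over IgG, 0.863 for LC3B over input and 1.77 for IgG over input. Reads of WTAP and SOD2 in the shared bases cannot be told apart. A second SOD2 entry, ENSG00000285441, which spans WTAP, held at most 9 reads, and the pseudogene WTAPP1 at most 19.

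ALKBH5 had the largest fold between the antibodies among the members with reads in all 4 libraries. ALKBH5 (ENSG00000091542, plus strand, chr17:18183078-18209954) had 62.5 CPM in the IgG input, 55.5 in that of LC3B, 31.9 after the pull-down with IgG and 104.8 after that with LC3B, from 525, 474, 313 and 1087 reads. The LC3B pull-down lay above both inputs and the IgG pull-down below both. LC3B over IgG was 3.29 (2.90 to 3.74) and was called higher, but 32.1% of tested genes had a higher fold in that comparison. LC3B over its input was 1.89 (1.69 to 2.11), which was not called, with 9.86% of genes higher, and IgG over its input was 0.510 (0.442 to 0.588), also not called. With mitochondrial reads in the totals, LC3B over input became 2.37 and was called higher, as were 5.83% of all genes in that setting. In TPM, ALKBH5 was the seventh most abundant of the 10 in the IgG input, the eighth in that of LC3B, the ninth with IgG and the fourth with LC3B. A non-coding gene on the opposite strand, AC087164.1, shares 1676 bases with ALKBH5 and had 32 reads in the IgG input, 14 in that of LC3B, 17 after the pull-down with IgG and 59 after that with LC3B. The fold of AC087164.1 was 3.29 (1.89 to 6.01) for LC3B over IgG, 3.47 (1.91 to 6.73) for LC3B over input, 0.454 (0.237 to 0.843) for IgG over input and 0.430 (0.212 to 0.830) between the inputs, none of them called. Reads of the pair in the shared bases cannot be told apart.

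The other eraser, FTO, was below its input in both pull-downs. FTO (ENSG00000140718, plus strand, chr16:53701692-54158512) had 45.7 CPM in the IgG input, 41.4 in that of LC3B, 22.3 after the pull-down with IgG and 31.3 after that with LC3B. Neither pull-down reached an input value. Its fold over input was 0.488 with IgG (0.411 to 0.577) and 0.756 with LC3B (0.648 to 0.881), and LC3B over IgG was 1.41 (1.18 to 1.68); none was called. RPGRIP1L, a ciliary gene on the opposite strand, shares 2247 bases with FTO, had 155 and 171 reads in the IgG and LC3B inputs, 87 with IgG and 68 with LC3B, and was called lower in the LC3B pull-down than in its input (0.327). Reads of FTO and RPGRIP1L in the shared bases cannot be told apart. The other 5 features that overlap FTO had 0 reads, and the pseudogene FTOP1 had 1 read in all.

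Of the cytoplasmic readers, YTHDF1 and YTHDF2 were recovered within the spread between the inputs in CPM without mitochondrial genes. YTHDF3 was below its input with IgG. YTHDF2 (ENSG00000198492, plus strand, chr1:28736621-28769775), the reader best known for mRNA decay, had 194.7 CPM in the IgG input, 196.7 in that of LC3B, 191.9 after the pull-down with IgG and 212.8 after that with LC3B. Its LC3B over IgG fold was 1.11 (1.04 to 1.18), its fold over input was 1.08 with LC3B (1.02 to 1.15), and it was 0.986 with IgG (0.922 to 1.05), or 1.25 with mitochondrial reads in the totals. LC3B over input was 1.355 in that setting. With 1636 to 2208 reads a library, YTHDF2 had the narrowest intervals of the set, and still its folds stayed within the spread between the inputs. YTHDF1 (ENSG00000149658, minus strand, chr20:63195429-63216139), linked to translation, had 120.5 CPM in the IgG input, 117.9 in that of LC3B, 106.5 after the pull-down with IgG and 140.8 after that with LC3B. The LC3B pull-down of YTHDF1 was the high library, with a fold of 1.19 over its input (1.10 to 1.30) and 1.32 over IgG (1.22 to 1.43), and IgG over input was 0.883 (0.809 to 0.964), or 1.12 with mitochondrial reads in the totals. YTHDF3 (ENSG00000185728, plus strand, chr8:63168553-63212786) had 84.0 CPM in the IgG input, 81.4 in that of LC3B, 60.6 after the pull-down with IgG and 66.8 after that with LC3B. Both pull-downs of YTHDF3 lay below both inputs, at 0.721 with IgG (0.645 to 0.805) and 0.821 with LC3B (0.738 to 0.913), the latter 1.03 with mitochondrial reads in the totals, and LC3B over IgG was 1.10 (0.987 to 1.23). None of the 3 was called in any comparison. YTHDF3-AS1, an antisense RNA gene named after YTHDF3, had 48 reads in the IgG input, 30 in that of LC3B, 107 after the pull-down with IgG and 91 after that with LC3B, with folds over input of 1.91 (1.35 to 2.74) and 2.5 (1.64 to 3.91), so it lay above input in both pull-downs where YTHDF3 lay below. The YTHDF1 and YTHDF2 pseudogenes held at most 1 read in a library.

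YTHDC1, the nuclear reader, was level across the libraries in CPM without mitochondrial genes. With mitochondrial reads in the totals its fold over input was 1.37 with LC3B and 1.17 with IgG. YTHDC1 (ENSG00000083896, minus strand, chr4:68310387-68350089) had 17.4 CPM in the IgG input, 16.4 in that of LC3B, 16 after the pull-down with IgG and 17.9 after that with LC3B. Its LC3B over IgG fold was 1.12 (0.902 to 1.4), LC3B over input 1.09 (0.874 to 1.37) and IgG over input 0.920 (0.730 to 1.16), and all 3 intervals held 1. In TPM the YTHDC1 folds with LC3B were below 1: LC3B over input was 0.755 without mitochondrial genes and 0.957 in the values as deposited, and LC3B over IgG was 0.836 and 0.845.

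YTHDC2, the helicase reader, was called higher in the LC3B pull-down, yet it lay below input in both pull-downs. YTHDC2 (ENSG00000047188, plus strand, chr5:113513694-113595285) had 106 reads in the IgG input, 124 in that of LC3B, 0 after the pull-down with IgG and 76 after that with LC3B, which is 12.6, 14.5, 0 and 7.33 CPM. No other member was without reads in a library; 0 reads allow up to 0.305 CPM, the level of 3 reads. Set against that floor, LC3B was 24.0-fold higher than IgG, with 19.0 as the lower limit of the counting interval. Against the same floor IgG was 41.3-fold lower than its input, and the upper limit of the fold of IgG over input was 0.0303. LC3B over its input was 0.505 (0.374 to 0.677), so the call over IgG rests on the 0 in the control and not on a level above input. Loss of low genes was common in that library: of 2607 genes with input levels of 9.04 to 20.4 CPM around that of YTHDC2, 558 (21.4%) had 0 reads with IgG, against 1 (0.0384%) with LC3B and 0 in the inputs.

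**Figure D3:**
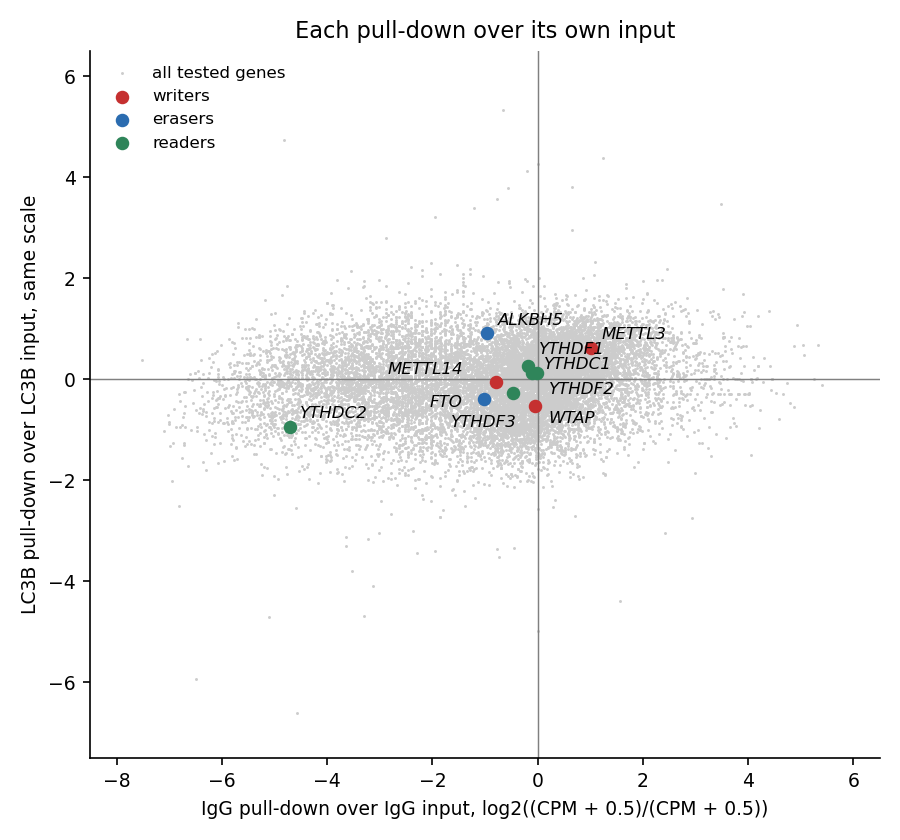
Log2 ratio to input with the LC3B antibody (vertical) against that with IgG (horizontal), with 0.5 CPM added to each level, for all 15431 tested genes (grey) and the 10 m6A genes (coloured by role). ALKBH5 lies above 0 with LC3B and below 0 with IgG, METTL3 above 0 in both, FTO and YTHDC2 below 0 in both.

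An input-corrected ratio sets the LC3B fold over input against the IgG fold over input. It was called higher for 2 of 10 members and lower for 0, where 29.1% of all genes were higher and 7.58% lower. ALKBH5 reached 3.70 (3.10 to 4.41), and YTHDC2 reached 20.8 with its 0 reads set to 3. With 0.5 added to each count the YTHDC2 ratio was 126, and its interval ran from 7.71 to 2057. METTL14 followed with 1.67 (1.34 to 2.09), then FTO with 1.55 (1.24 to 1.94) and YTHDF1 with 1.35 (1.20 to 1.52), all uncalled. METTL3, at 0.763 (0.637 to 0.914), and WTAP, at 0.708 (0.631 to 0.795), were the members below 1. YTHDF2 was at 1.10 (1.0 to 1.20), YTHDF3 at 1.14 (0.979 to 1.33) and YTHDC1 at 1.19 (0.868 to 1.63).

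By role, the summed level differed most between the antibodies for the erasers. The summed level of the 2 erasers was 108.2 CPM in the IgG input, 96.9 in that of LC3B, 54.2 after the pull-down with IgG and 136.1 after that with LC3B, and ALKBH5 made up most of the last. The 3 writers summed to 227.4, 210.8, 245.5 and 190.3 CPM in the same order, where the LC3B pull-down was the low library. The 5 readers summed to 429.2, 426.8, 374.9 and 445.7 CPM. All 10 together took 764.7, 734.6, 674.5 and 772.0 CPM, so of the reads outside mitochondrial genes the set took about the same share with LC3B as in the inputs. With mitochondrial reads in the totals, the same sums were 590.4 and 582.0 CPM in the inputs, 662.6 with IgG and 766.0 with LC3B.

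A ratio between members of the same role, taken within a library, does not depend on how libraries are scaled. METTL3 and METTL14, which form the catalytic pair, stood at a TPM ratio of 1.04 in the IgG input and 1.05 in that of LC3B, at 3.42 with IgG and at 1.53 with LC3B. In counts that ratio changed 3.56-fold (2.90 to 4.36) from input with IgG and 1.62-fold (1.33 to 1.97) with LC3B. Between the inputs it already differed 1.25-fold (1.01 to 1.54) in counts, an interval that overlaps that of LC3B. The pair was therefore recovered unequally with IgG beyond the difference between the inputs, and less so with LC3B than with IgG (0.567, 0.469 to 0.687). METTL3 to WTAP was 0.299 in the IgG input, 0.327 in its LC3B counterpart, 0.642 with IgG and 0.711 with LC3B, a change in counts of 2.09-fold (1.80 to 2.42) with IgG and 2.25-fold with LC3B. METTL14 to WTAP was 0.287 in the IgG input, 0.312 in its LC3B counterpart, 0.188 with IgG and 0.464 with LC3B, and in counts it changed 0.587-fold (0.491 to 0.701) with IgG and 1.39-fold (1.17 to 1.65) with LC3B, so the antibodies differed in direction.

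The ratio of ALKBH5 to FTO changed with LC3B and stayed near input with IgG. It stood at 0.815 in the IgG input, 0.841 in that of LC3B, 0.693 with IgG and 2.04 with LC3B. In counts it changed 2.5-fold (2.08 to 3.01) from input with LC3B and 1.05-fold (0.841 to 1.30) with IgG. The readers kept closer ratios: YTHDF1 to YTHDF2 ran from 0.559 to 0.676 over the 4 libraries, YTHDF1 to YTHDF3 from 2.19 to 3.03 and YTHDF2 to YTHDF3 from 3.68 to 4.48.

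**Figure D4:**
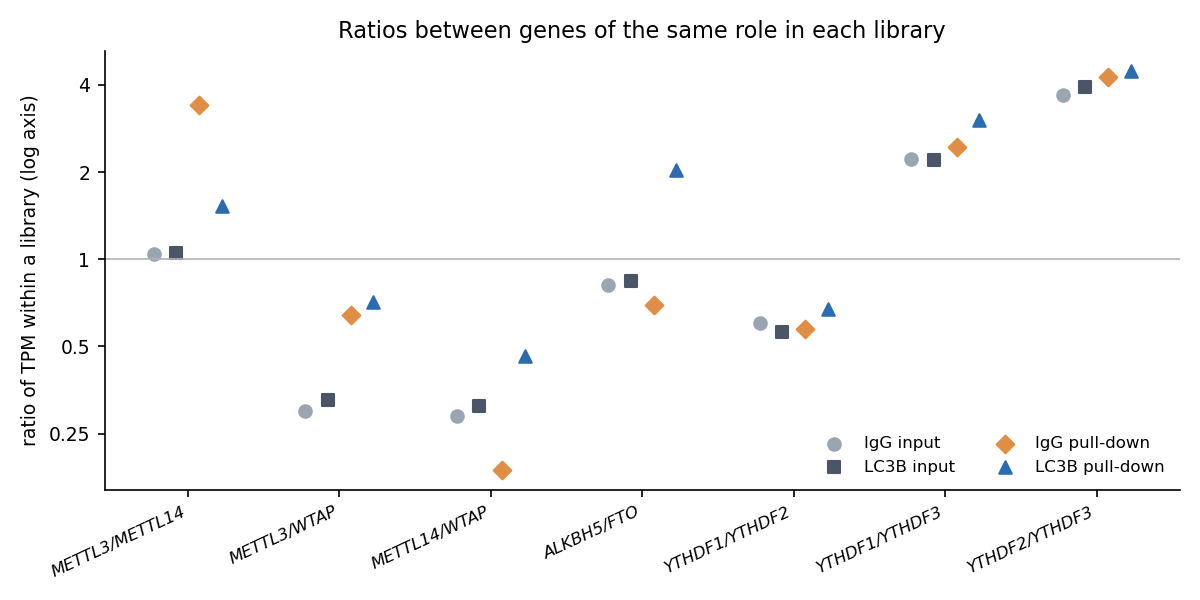
Ratio of TPM between members of the same role within each library, on a log axis, 1 point per library. METTL3 to METTL14 is highest in the IgG pull-down at 3.42, and ALKBH5 to FTO is above 1 in the LC3B pull-down alone of the 4 libraries, at 2.04.

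The wider m6A machinery held 43 listed genes in 6 lists, of which 42 passed the level filter; MEIOC, the meiotic partner of YTHDC2, did not. In the LC3B pull-down over the IgG pull-down, 14 of the 42 were called higher and 1 lower, where all genes had 33.8% and 9.45%. Against the LC3B input 0 were higher and 4 lower, where all genes had 1.4% and 4.48%. In the IgG pull-down 2 were called above input and 14 below, where all genes had 9.69% and 33.6%. Of 5 other writer subunits 2 were higher with LC3B than with IgG, VIRMA, the scaffold of the writer complex, and RBM15, which guides the writer to its targets. VIRMA had 51 reads against 0, 16.1-fold with the 0 set to 3 reads (lower limit of the counting interval 12.6). RBM15 had 186 against 0, 58.7-fold in the same way (lower limit 47.3). As with YTHDC2, these genes were not above the LC3B input: VIRMA was at 0.333 and called lower, and RBM15 at 0.747 (0.609 to 0.916) was uncalled. Of 6 other methyltransferase genes METTL16, which methylates the U6 small nuclear RNA, was higher, with 103 reads against 0 (32.5-fold in the same way, lower limit 26.0). METTL16 was at 0.610 (0.468 to 0.793) of its LC3B input.

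Of 11 readers without a YTH domain, 5 were higher over IgG, HNRNPA2B1 at 2.59 (2.52 to 2.65) and the stabilising protein gene ELAVL1 at 2.35 (2.12 to 2.60) among them, and FMR1, the fragile X gene, had 241 reads with LC3B and 1 with IgG, a fold of 228 with an interval of 40.6 to 9050; over the LC3B input FMR1 was at 0.666 (0.560 to 0.792). Over all tested genes 33.8% were called higher over IgG, the share against which the count of each list is to be read. FXR1, a relative of FMR1, was lower in both pull-downs than in input, at 0.402 with LC3B and 0.35 with IgG, while FXR2 was higher than input with IgG, at 2.59. Among 7 other ALKBH genes, ALKBH2, a DNA repair enzyme, was higher over IgG at 2.62 and ALKBH3 at 14.0 (9.91 to 20.5). ALKBH8, a tRNA-modifying enzyme, was higher too, with 63 reads against 0 (19.9-fold with the 0 set to 3 reads, lower limit 15.7). Over the LC3B input ALKBH8 was at 0.640 (0.453 to 0.901) and ALKBH1 at 0.663, below 1 where ALKBH5 was above. ALKBH2 at 2.15, ALKBH3 at 1.93, ALKBH7 at 1.69, ALKBH6 at 1.56 and ALKBH4 at 1.46 were above 1, as ALKBH5 was. None of these was called. In the methyl donor list of 5, MAT2B, a regulatory subunit of the enzyme that makes S-adenosylmethionine, was the 1 listed gene called lower with LC3B than with IgG, at 0.426 (0.402 to 0.452), while AHCY, which clears the by-product of methylation, was higher at 2.48. Of 8 tested reader partners POP1, a subunit of RNase P and RNase MRP, was higher at 3.64 (2.32 to 5.90), and against the LC3B input XRN1, the 5′ to 3′ exonuclease, was lower at 0.333 and SRSF10, a splicing factor, at 0.438.

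**Figure D5:**
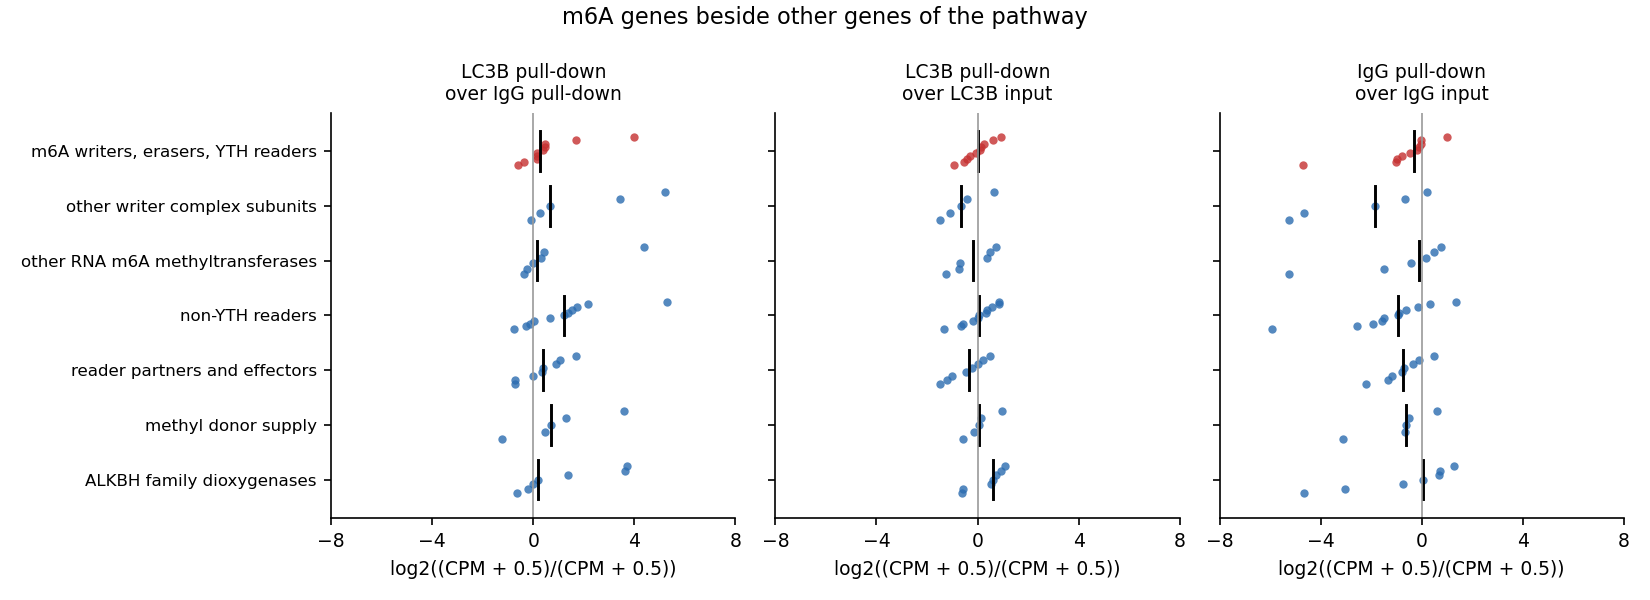
Log2 ratio of the LC3B pull-down over the IgG pull-down, and of each pull-down over its input, with 0.5 CPM added to each level, for every tested gene of the 6 m6A pathway lists and for the 10 members, 1 point per gene, with a bar at the median of each list. In the first panel the median of the readers without a YTH domain is 1.23, and that of the members is 0.28.

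The genes whose profiles over the 4 libraries lay nearest to the members were picked from the 15430 other tested genes by the Euclidean distance of log2(CPM + 0.5), each profile centred on its own mean. For METTL3 these were MDK at 0.0178, PRDX2 at 0.0287 and STUB1 at 0.0391. For ALKBH5 they were U2AF2 at 0.0882, LRP3 at 0.110 and ABI3 at 0.113, none as near as those of METTL3. For YTHDF2 they were FIP1L1 at 0.0282, HIPK2 at 0.0301 and CENPK at 0.0309. Within the set, YTHDC1 lay nearest to YTHDF2 at 0.0805, whereas METTL3 and METTL14 were 1.39 apart and ALKBH5 and FTO 1.10 apart, so neither the catalytic pair nor the erasers had like profiles. A distance over 4 libraries is a description of these libraries.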

How the data were processed

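The counts are raw reads assigned to each Ensembl gene, as deposited by the authors; commas that grouped their digits were removed here. The TPM values were deposited by the authors as well, per the file headers; the length used for each transcript is not given in the sources used here. The submitters' processing notes name cutadapt 2.8, STAR 2.7.1a and build hg38. The counting tool with its annotation release and strand setting is not given in the sources used here. SMART-Seq v4 was used for the libraries, per the labels' protocols.

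Counts were scaled to each library's total without mitochondrial genes (8404123 to 10375786). Genes averaging at least 1 CPM across all 4 libraries were tested. Folds have exact conditional binomial (Clopper-Pearson) 95% intervals; the input-corrected ratio has a log-normal interval after adding 0.5 to every count. A count of 0 was set to 3 reads per library to give a fold, which leaves out the counting error of the other library. Log2 ratios have 0.5 CPM added. The interval code was tested on simulated data. Alternatives were mitochondrial reads in the totals, trimmed-mean and median-of-ratios scaling, other filters, pseudocounts and bounds, TPM, and counts thinned to equal depth. Python 3.11.15, numpy 2.4.6, pandas 2.3.3 and scipy 1.17.1 were used.

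The named genes are the 10 members, listed pathway genes called in a comparison with a pull-down (at most 4 per list and comparison, by the bound nearer 1), the 3 nearest profiles of METTL3, ALKBH5 and YTHDF2, and features that overlap a member or share its name. Uncalled or further genes named with them, and the ratios between members, were chosen after their values were seen. The members and lists were chosen with earlier results of these data known.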

Additional observations from a re-analysis of the deposited data

Results flagged for a closer look

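Between the antibodies, 2 members had a called difference in their folds over input, ALKBH5 and YTHDC2, and ALKBH5 and YTHDF1 lay on opposite sides of input. ALKBH5 was above its input with LC3B, at 1.89, and below it with IgG, at 0.510, and the ratio of these folds, 3.70, had a counting interval of 3.10 to 4.41. For YTHDC2 the same ratio was 20.8 with 0 reads in the IgG pull-down set to 3, and its interval with 0.5 added to each count was 7.71 to 2057. YTHDF1 was at 1.19 with LC3B and at 0.883 with IgG, both counting intervals clear of 1 but both folds within the spread between the inputs. The ratio of the folds had an interval clear of 1 for 8 of the 10 members, 6 above and 2 below. For YTHDF2, among those above, the lower limit was 1.002. The share of all tested genes with such an interval was not counted, so the number is not a trait of the members. None of these differences could be tested across samples, because each group held 1 library. The IgG pull-down, with reads in 14440 genes, was the lowest library for ALKBH5 and for YTHDC2. ALKBH5 held 313 reads there, and its LC3B pull-down lay above both inputs. YTHDC2 held 0 reads there, and its LC3B pull-down lay below both inputs. The part of the IgG library in these differences was not tested.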

How the results depend on the processing

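Member counts stayed within 1.5 times the reported one in 78 repeats and moved further in 6. With mitochondrial reads in the totals, 1 member was called higher in the LC3B pull-down than in its input (ALKBH5, 2.37), where 5.83% of all genes were. In the IgG pull-down 1 member was called higher than in input (METTL3, 2.58), where 15.6% of all genes were. For these comparisons the members' medians became 0.34 and 0.02 on the log2 scale. Those of all genes became 0.32 and -0.10, since this setting rescales all genes alike. With bounds of 4 and 0.25, 1 member remained higher with LC3B than with IgG and 1 by the input-corrected ratio, YTHDC2 in both. Of all genes 24% and 17.7% were called higher there. With point folds, 1 member was higher with IgG than in its input (METTL3, 2.02) and 2 were lower (FTO, 0.488, and YTHDC2). Of all genes 14.9% were higher and 39.4% lower there. Of 459 repeated folds 4 gained a call, 2 lost one and 453 were without a change of call. The TPM folds have no counting interval, so among these no call could change. The other filters dropped no member and left its fold as it was, so their calls and member counts could not change either. Across all repeats 18 uncalled folds crossed 1 and 0 called ones did. With both inputs summed, chosen after seeing the data, no member's call changed (ALKBH5 1.78, METTL3 with IgG 2.0). Thinning to equal depth changed no member's call. The crossings were in METTL3, METTL14, WTAP and the YTH readers other than YTHDC2. The order of the members by level in a library could not change with mitochondrial genes in the TPM, because all genes of a library are rescaled alike. No paired analysis was possible because each group holds 1 library. Depth limits YTHDC2 most, with at most 124 reads.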
